A study of Mus musculus with 49 samples.

Results

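The 10 genes described here encode the killing machinery of CD8+ T cells. They are the granzymes *Gzma*, *Gzmb*, *Gzmc*, *Gzmk*, and *Gzmm*, the pore-forming protein perforin (*Prf1*), the granule proteoglycan serglycin (*Srgn*), the death ligand *Fasl*, the lymphocyte protease cathepsin W (*Ctsw*), and the lysosomal membrane protein *Lamp1*. They were taken by symbol from the 23992 gene symbols of the deposited tables, with the longest RefSeq transcript used for each. All 10 passed the filter on low counts and were among the 15566 genes tested.

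RNA-seq was performed on CD8+ T cells purified from mouse spleen by negative selection, from a *Stat5a* line and a *Stat5b* line on the C57BL/6J strain. The KI mice of each line are homozygous for an allele in which the tyrosine of STAT5A or STAT5B that is phosphorylated after IL-2 is replaced by phenylalanine. The change is in the germline, so every cell of the mouse carries it, and the other STAT5 protein is intact in each line. Each line was compared with its own WT littermates, which came from matings of heterozygous mice. Libraries were made from cells at 0 hr and after 4, 24, and 48 hr of culture in recombinant human IL-2 at 500 IU/ml, with 3 libraries in each of the 16 groups of line, genotype, and time. No group was cultured without IL-2, so in changes from 0 hr the effects of IL-2, culture, and time cannot be told apart. Such changes are called IL-2 responses below for short. Mice were of both sexes and aged 8 to 24 weeks, and the alleles had been backcrossed for 6 generations after editing of hybrid zygotes. The sources used here do not say whether a library holds 1 mouse or a pool, and p-values measure the spread between libraries, which may be technical in part.

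The 47 libraries used hold 17369112 to 60200653 counted reads, with a median of 41410666. The library numbered 3 of *Stat5a* KI cells at 4 hr, in which 5.68% of mapped reads fell on the counted transcripts, was left out. The second WT library of *Stat5a* littermates at 4 hr (replicate 2) was kept but stood apart. It had the fewest counted reads, 44.9% of its mapped reads were counted, and its chi-square per gene was 217 and 221 against the other WT libraries, which gave 23.0 between themselves. Where leaving it out changes a call of the 10 genes or the direction of the calls over all genes, the value without it is given.

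Cytotoxic T cells kill by releasing granules onto a target. Perforin opens the target's membrane, granzymes enter and cut proteins that trigger death, and serglycin holds the granzymes and perforin inside the granule. FAS ligand on the cell surface kills by a separate route, through FAS on the target. IL-2 signals through JAK kinases to STAT5A and STAT5B, which bind DNA as dimers at GAS motifs, and granzyme B is a well-known gene of IL-2-stimulated T cells.

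*Gzmb* (GRCm38, chr14:56258836-56262334, minus strand) and *Gzmc* (chr14:56231397-56241647, minus strand) lie in 1 cluster of granzyme genes. *Gzma* (chr13:113093824-113100981) and *Gzmk* (chr13:113171630-113180965) are neighbours on the minus strand of chromosome 13, and *Gzmm* (chr10:79689020-79695261, plus strand) lies on another chromosome. The 250 bases before the RefSeq start site of 3 of these genes, read from GRCm38.p6, are shown because *Gzmb* and *Gzmc* had the largest log2 fold changes with IL-2 among the 10 genes in WT cells at 24 and 48 hr, and because *Gzmm* was the 1 gene with a GAS match among the 9 found in the promoter table. Capitals mark an AP-1 match (TGACTCA or TGAGTCA) in *Gzmb*, at chr14:56262335-56262584 on the minus strand, a CRE match (TGACGTCA) in *Gzmc*, at chr14:56234658-56234907 on the minus strand, and a GAS match (TTCNNNGAA) in *Gzmm*, at chr10:79688770-79689019 on the plus strand. The start site used for *Gzmc* lies inside the span of this gene in the RefSeq gene table.
Gzmb: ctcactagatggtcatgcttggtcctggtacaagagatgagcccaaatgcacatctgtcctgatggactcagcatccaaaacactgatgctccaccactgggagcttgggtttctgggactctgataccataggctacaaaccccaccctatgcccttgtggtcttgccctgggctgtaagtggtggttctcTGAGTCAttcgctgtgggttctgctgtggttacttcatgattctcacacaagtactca
Gzmc: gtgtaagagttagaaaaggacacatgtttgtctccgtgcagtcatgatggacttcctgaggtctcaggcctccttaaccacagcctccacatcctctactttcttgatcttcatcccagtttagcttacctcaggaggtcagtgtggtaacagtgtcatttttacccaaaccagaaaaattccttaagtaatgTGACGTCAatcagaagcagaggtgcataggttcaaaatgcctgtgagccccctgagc
Gzmm: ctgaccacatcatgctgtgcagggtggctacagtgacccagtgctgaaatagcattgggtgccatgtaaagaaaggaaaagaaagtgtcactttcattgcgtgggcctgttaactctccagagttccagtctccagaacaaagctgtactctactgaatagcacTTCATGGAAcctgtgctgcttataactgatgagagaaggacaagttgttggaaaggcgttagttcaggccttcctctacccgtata

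The AP-1 match of *Gzmb* lies 58 to 52 bases before the start site, and the CRE match of *Gzmc* lies 57 to 50 bases before it. The GAS match of *Gzmm* lies 86 to 78 bases before the start of 1 of its 2 listed promoters. Motifs were sought on both strands. Of the 32851 promoters in the table, 7.02% hold a GAS match in the same window, 4.46% an AP-1 match, and 1.55% a CRE match. The Runx core TGTGGT, a motif of T cell genes, is found in 14.0% of promoters and in those of 7 of the 9 genes, namely 2 times each in *Gzmb* and *Gzmc* and 1 time each in *Gzma*, *Gzmm*, *Prf1*, *Srgn*, and *Lamp1*, the *Gzmm* and *Srgn* matches lying in 1 of 2 listed promoters. A match in these letters is a description and not a measured binding site.

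In WT cells with IL-2, *Gzmb* rose at every time and *Gzmc* rose by 24 hr. *Fasl* rose less, with calls against 0 hr at 48 hr in the *Stat5a* line (1.44 ± 0.25 on the log2 scale) and the *Stat5b* line (1.09 ± 0.25). *Fasl* was also called at 4 hr in the *Stat5b* line (1.17 ± 0.25), and at 24 hr in neither line (0.19 and 0.31). *Srgn* fell, with calls at 48 hr in both lines and at 24 hr in the *Stat5a* line alone. The level of a gene is given as RPKM, which is the authors' read count scaled to transcript length and to mapped reads. *Gzmb* in WT cells of the *Stat5a* line stood at 4.10, 4.44, and 9.04 RPKM at 0 hr, at 23.4, 28.4, and 29.1 at 4 hr, at 109.02, 197, and 218 at 24 hr, and at 784, 1239, and 1317 at 48 hr. WT cells of the *Stat5b* line had 4.86, 8.60, and 11.3 RPKM at 0 hr, 21.2, 44.8, and 48.8 at 4 hr, 202, 219, and 315 at 24 hr, and 1221, 1341, and 1426 at 48 hr. Libraries of successive times did not overlap in either line. Against 0 hr, the log2 fold change of *Gzmb* at 48 hr was 7.35 ± 0.39 (SE) in WT cells of the *Stat5a* line (adjusted p = 1.44e-18) and 7.16 ± 0.39 in those of the *Stat5b* line (adjusted p = 2.02e-18), which is 163.1-fold and 143.1-fold. Unless another method is named, every adjusted p-value is from edgeR's quasi-likelihood test, adjusted by Benjamini-Hochberg over all genes tested. A gene was called when it changed by at least 2-fold with an adjusted p no higher than 0.05. The rise of *Gzmb* was called already at 4 hr, at 2.28 ± 0.33 (1.96 without WT replicate 2) and 2.04 ± 0.32 on the log2 scale. By 48 hr *Gzmb* took 0.138% to 0.227% of all counted reads in WT libraries of the *Stat5a* line and 0.205% to 0.241% in those of the *Stat5b* line.

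*Gzmc*, a granzyme of the same cluster, started near the limit of detection. At 0 hr the WT libraries of the *Stat5a* line held 6 to 8 reads and those of the *Stat5b* line 3 to 6, which makes its fold changes against 0 hr imprecise. The WT libraries of the *Stat5a* line reached 3.19, 4.57, and 5.14 RPKM at 24 hr and 14.7, 16.3, and 21.0 at 48 hr. Littermates of the *Stat5b* line reached 4.77, 7.77, and 9.61 RPKM at 24 hr and 10.5, 13.9, and 17.4 at 48 hr. All libraries at 48 hr were above all at 24 hr in both lines. The log2 fold change at 48 hr was 7.04 ± 0.41 and 7.16 ± 0.44 in the *Stat5a* and *Stat5b* lines, and 4.03 and 3.76 by limma on log2(RPKM + 1), which understates the change of a gene that starts this low. Of the 50-base stretches of its transcript, 4.14% are found in a transcript of another gene, mostly *Gzme*, and the other 9 genes share none. Only uniquely mapped reads were kept, and reads from those stretches are not counted for *Gzmc*.

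Of the 10 genes, 1 rose and 1 fell at 4 hr in WT cells of the *Stat5a* line, beside 10.0% and 11.4% of all genes tested. Without WT replicate 2, *Fasl* was called there as well (1.04, adjusted p = 0.00118). Of all genes called in this comparison 46.9% rose, and this share was 33.8% without WT replicate 2, 55.9% and 55.5% without WT replicate 1 or 3, and 56.8% without TMM scaling, so its direction depends on the libraries and scaling used. At 24 hr 2 rose and 1 fell, beside 8.72% and 14.2%, and at 48 hr 4 rose and 1 fell, beside 14.3% and 22.3%. WT cells of the *Stat5b* line had 3 genes that rose and 1 that fell at 4 hr, beside 5.83% and 9.89%. There, 2 rose and 0 fell at 24 hr, beside 9.07% and 13.5%, and 3 rose and 2 fell at 48 hr, beside 14.6% and 20.7%. The median log2 fold change of the 10 genes at 48 hr was 0.61 and 0.20 in the *Stat5a* and *Stat5b* lines, against −0.123 and −0.133 for all genes tested.

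After 48 hr with IL-2, KI cells of both lines had less *Gzmb* and *Fasl* than WT cells, *Gzmc* was lower and *Gzmk* higher in KI cells of the *Stat5b* line, and *Prf1*, *Srgn*, and *Lamp1* were not called in either line at any time. At 0 hr, edgeR called 0 of the 10 genes between KI and WT cells of the *Stat5a* line, beside 0.861% of all genes higher and 0.180% lower. In that comparison 2 of the 10, *Gzmm* and *Ctsw*, had an unadjusted p under 0.05, and DESeq2 and limma also called 0. In the *Stat5b* line at 0 hr 0 were higher and 1 lower (*Gzmm*), beside 7.38% and 0.604%. At 4 hr edgeR called 0 in the *Stat5a* line, beside 2.47% higher and 4.16% lower. The excess of lower genes turned round without WT replicate 2, which left 352 higher and 78 lower in place of 384 and 648, and 54 genes in all were called without KI replicate 1. There *Gzmb*, *Srgn*, *Fasl*, and *Ctsw* had an unadjusted p under 0.05, and DESeq2 and limma called 0. In the *Stat5b* line at 4 hr 0 were higher and 4 lower, beside 9.20% and 1.23%. For the *Stat5a* line at 24 hr 0 were higher, beside 3.21% of all genes, and 2 lower, beside 1.24%, and at 48 hr 0 were higher, beside 6.35%, and 2 lower, beside 2.43%. For the *Stat5b* line at 24 hr 1 was higher, beside 10.9%, and 4 lower, beside 5.77%, and at 48 hr 1 was higher, beside 16.5%, and 3 lower, beside 9.81%. The median log2 fold change of the 10 genes at 48 hr was −0.22 and −0.23 in the *Stat5a* and *Stat5b* lines, against 0.038 and 0.104 for all genes. Without TMM scaling the *Stat5b* line gave 2118 genes higher and 625 lower at 24 hr, against 1698 and 898 with it, and 3275 and 953 at 48 hr, against 2564 and 1527, as the median of all genes at 48 hr went to 0.323.

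*Gzmb*, whose protein is the main death-inducing granzyme, showed the largest difference. In *Stat5b* KI cells it stood at 8.80, 9.45, and 10.4 RPKM at 0 hr, at 5.36, 6.31, and 6.92 at 4 hr, at 13.8, 13.8, and 17.4 at 24 hr, and at 68.6, 69.3, and 75.5 at 48 hr. At 0 hr KI libraries lay within the WT range, and at each later time every KI library was below every WT library. All 3 *Stat5b* KI libraries at 4 hr were below all 3 at 0 hr, a change that was not tested. The log2 fold change of KI over WT was 0.15 ± 0.32 at 0 hr (adjusted p = 0.783), −2.74 ± 0.33 at 4 hr (adjusted p = 8.44e-08), −4.06 ± 0.34 at 24 hr (adjusted p = 2.27e-12), and −4.30 ± 0.34 at 48 hr (adjusted p = 1.69e-13). The last is a 19.7-fold lower level.

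In *Stat5a* KI cells, *Gzmb* stood at 2.44, 5.14, and 5.25 RPKM at 0 hr, at 37.2, 43.8, and 45.2 at 24 hr, and at 176, 204, and 286 at 48 hr. Its 2 KI libraries at 4 hr stood at 14.5 and 22.7 RPKM. KI and WT libraries overlapped at 0 hr and did not overlap at the later times. KI over WT gave log2 fold changes of −0.48 ± 0.34 at 0 hr (adjusted p = 0.538), −0.87 ± 0.35 at 4 hr (adjusted p = 0.0624), −2.12 ± 0.31 at 24 hr (adjusted p = 1.17e-05), and −2.38 ± 0.31 at 48 hr (adjusted p = 9.4e-08). The last is a 5.21-fold lower level. The difference at 4 hr did not pass the threshold, stood at −0.56 (adjusted p = 0.307) without WT replicate 2, and was called at −1.12 (adjusted p = 0.0186) without WT replicate 1 and at −1.25 (adjusted p = 0.0488) without KI replicate 2, which leaves 1 KI library.

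The difference of the IL-2 responses, KI minus WT, asks whether the difference with IL-2 exceeds that at 0 hr. For *Gzmb* in the *Stat5b* line it was −4.21 ± 0.45 at 24 hr and −4.45 ± 0.45 at 48 hr (adjusted p = 2.37e-09 and 2.15e-10). For the *Stat5a* line it was −1.64 ± 0.45 at 24 hr (adjusted p = 0.0248) and −1.90 ± 0.45 at 48 hr (adjusted p = 0.00154). The 24 hr value in the *Stat5a* line lost its call, at −1.43 to −1.57, when any 1 of 7 libraries was left out, namely replicates 1 and 2 of the WT cells and of the KI cells at 0 hr, replicates 2 and 3 of the WT cells at 24 hr, and replicate 2 of the KI cells at 24 hr. It was also lost with all 48 libraries (−1.68, adjusted p = 0.103) and with only the groups compared (adjusted p = 0.0546). The KI effect on *Gzmb* was larger in the *Stat5b* line than in the *Stat5a* line, with a difference of −1.94 ± 0.43 at 24 hr (adjusted p = 0.00147) and −1.92 ± 0.42 at 48 hr (adjusted p = 0.00238), each line being set against its own WT littermates in 1 fit.

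**Figure D1:**
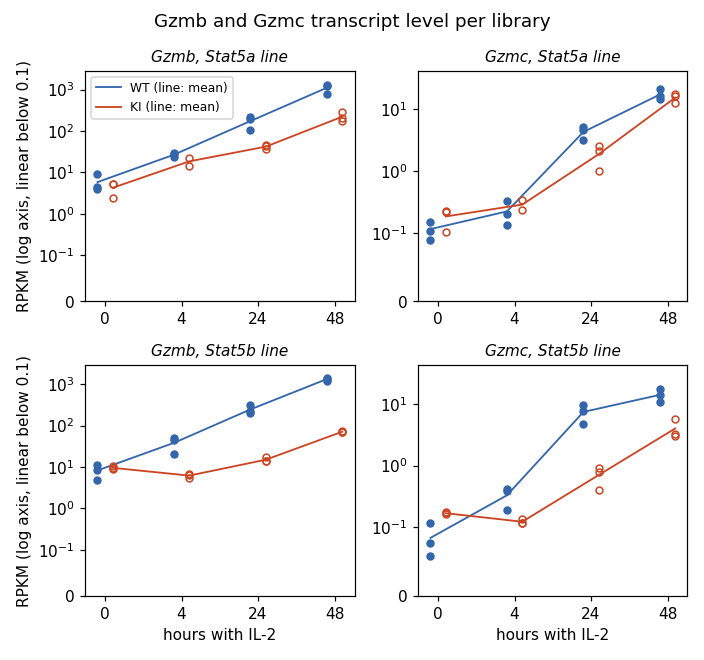
*Gzmb* and *Gzmc* levels in RPKM (log axis, linear below 0.1) by hours with IL-2 (times evenly spaced), with 1 point per library, WT filled blue, KI open red, and lines through the means. *Gzmb* ends at 1221 to 1426 RPKM in WT cells of the *Stat5b* line and at 68.6 to 75.5 in KI cells, and *Gzmc* of KI cells overlaps WT at 48 hr in the *Stat5a* line but not in the *Stat5b* line.

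*Gzmc* was lower in KI cells of both lines at 24 hr, and at 48 hr in the *Stat5b* line. In *Stat5b* KI cells it stood at 0.400, 0.784, and 0.926 RPKM at 24 hr and at 2.95, 3.30, and 5.71 at 48 hr, below every WT library at both times. KI over WT gave −3.42 ± 0.33 on the log2 scale at 24 hr (adjusted p = 7.62e-11) and −1.89 ± 0.29 at 48 hr (adjusted p = 6.03e-07). In *Stat5a* KI cells it stood at 1.00, 2.08, and 2.54 RPKM at 24 hr and at 12.7, 16.2, and 17.5 at 48 hr. These were below the WT libraries at 24 hr and overlapped them at 48 hr. The log2 fold change in the *Stat5a* line was −1.27 ± 0.30 at 24 hr (adjusted p = 0.00261). It was under 2-fold without KI replicate 2 (−0.97, adjusted p = 0.0355) and by limma (−0.9, adjusted p = 0.00151). At 48 hr it was −0.22 ± 0.27 (adjusted p = 0.557), and an interval of 2 SE around it runs from −0.77 to 0.33. The KI effects of the lines differed by −2.16 ± 0.44 at 24 hr (adjusted p = 0.000652) and by −1.67 ± 0.40 at 48 hr (adjusted p = 0.0047), the latter with an adjusted p of 0.0543 when all 48 libraries were used.

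The IL-2 responses of *Gzmc* in KI and WT cells differed by −4.35 ± 0.72 at 24 hr and by −2.81 ± 0.70 at 48 hr in the *Stat5b* line, both called. In *Stat5a* cells the difference was −2.00 ± 0.65 at 24 hr (adjusted p = 0.0642) and −0.95 ± 0.63 at 48 hr (adjusted p = 0.28). The 24 hr value was called by DESeq2 (−2.01, adjusted p = 0.0223) and without replicate 1 of the WT (−2.20, adjusted p = 0.0391) or KI cells (−2.27, adjusted p = 0.0332) at 24 hr. At 4 hr *Stat5b* KI libraries held 6 to 7 reads of *Gzmc* and WT libraries 11 to 20. The call there (−1.49 ± 0.52, adjusted p = 0.0288) was lost, at −1.31 to −1.57, without any 1 of the 6 libraries other than WT replicate 1, and without TMM scaling (adjusted p = 0.055). Limma on log2(RPKM + 1) lost it too (−0.24, adjusted p = 0.549).

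*Fasl*, the ligand of the other killing route, was lower in *Stat5b* KI cells at 4, 24, and 48 hr and in *Stat5a* KI cells at 48 hr. *Fasl* in WT cells of the *Stat5b* line stood at 5.82, 6.68, and 8.11 RPKM at 0 hr, at 15.4, 17.4, and 19.2 at 4 hr, at 8.81, 9.83, and 10.5 at 24 hr, and at 14.9, 16.6, and 17.9 at 48 hr. In *Stat5b* KI cells it stood at 3.41, 4.25, and 4.25 RPKM at 0 hr, at 4.44, 6.47, and 6.71 at 4 hr, at 3.95, 4.43, and 4.82 at 24 hr, and at 4.12, 5.81, and 6.45 at 48 hr. WT levels were highest at 4 and 48 hr, and every KI library lay below every WT library at each of the 4 times. The log2 fold change of KI over WT was −0.85 ± 0.25 at 0 hr (adjusted p = 0.0115, under the 2-fold threshold), −1.68 ± 0.25 at 4 hr, −1.17 ± 0.25 at 24 hr, and −1.68 ± 0.25 at 48 hr, the last 3 called. Without TMM scaling, and by limma, the 24 hr value was −0.99, just under 2-fold. In this line the IL-2 responses of *Fasl* differed by −0.32 ± 0.35 at 24 hr (adjusted p = 0.538) and by −0.82 ± 0.35 at 48 hr (adjusted p = 0.0487, under 2-fold), and neither was called.

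*Fasl* in WT cells of the *Stat5a* line stood at 3.101, 3.33, and 4.02 RPKM at 0 hr and at 7.57, 11.9, and 13.4 at 48 hr. In *Stat5a* KI cells it stood at 2.51, 2.68, and 2.96 RPKM at 0 hr and at 3.31, 3.60, and 5.54 at 48 hr. KI libraries were below the WT libraries at both times. At 4 hr its WT libraries stood at 3.95, 4.89, and 11.3 RPKM and its KI libraries at 3.64 and 5.05. These overlapped, and the difference was not called (−0.88 ± 0.28, adjusted p = 0.0238, under 2-fold), though it was without WT replicate 1 (−1.17, adjusted p = 0.00213). The log2 fold change of KI over WT was −0.99 ± 0.26 at 24 hr (adjusted p = 0.00582, just under 2-fold, and called without WT replicate 1 or 2 or KI replicate 1) and −1.46 ± 0.25 at 48 hr (adjusted p = 1.08e-05). The IL-2 responses in KI and WT cells differed by −1.08 ± 0.36 at 48 hr (adjusted p = 0.0215). That call was lost without WT replicate 1 of 0 hr (adjusted p = 0.0519), WT replicate 3 of 48 hr (−0.94, adjusted p = 0.0593), or KI replicate 3 of 48 hr (−0.98, adjusted p = 0.0518), and without TMM scaling (−0.99). All 48 libraries (−1.13, adjusted p = 0.0678) and limma (−0.94, adjusted p = 0.0376, under 2-fold) lost it too. The KI effect on *Fasl* was not shown to differ between the lines, with a difference of −0.22 ± 0.35 at 48 hr (adjusted p = 0.756).

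**Figure D2:**
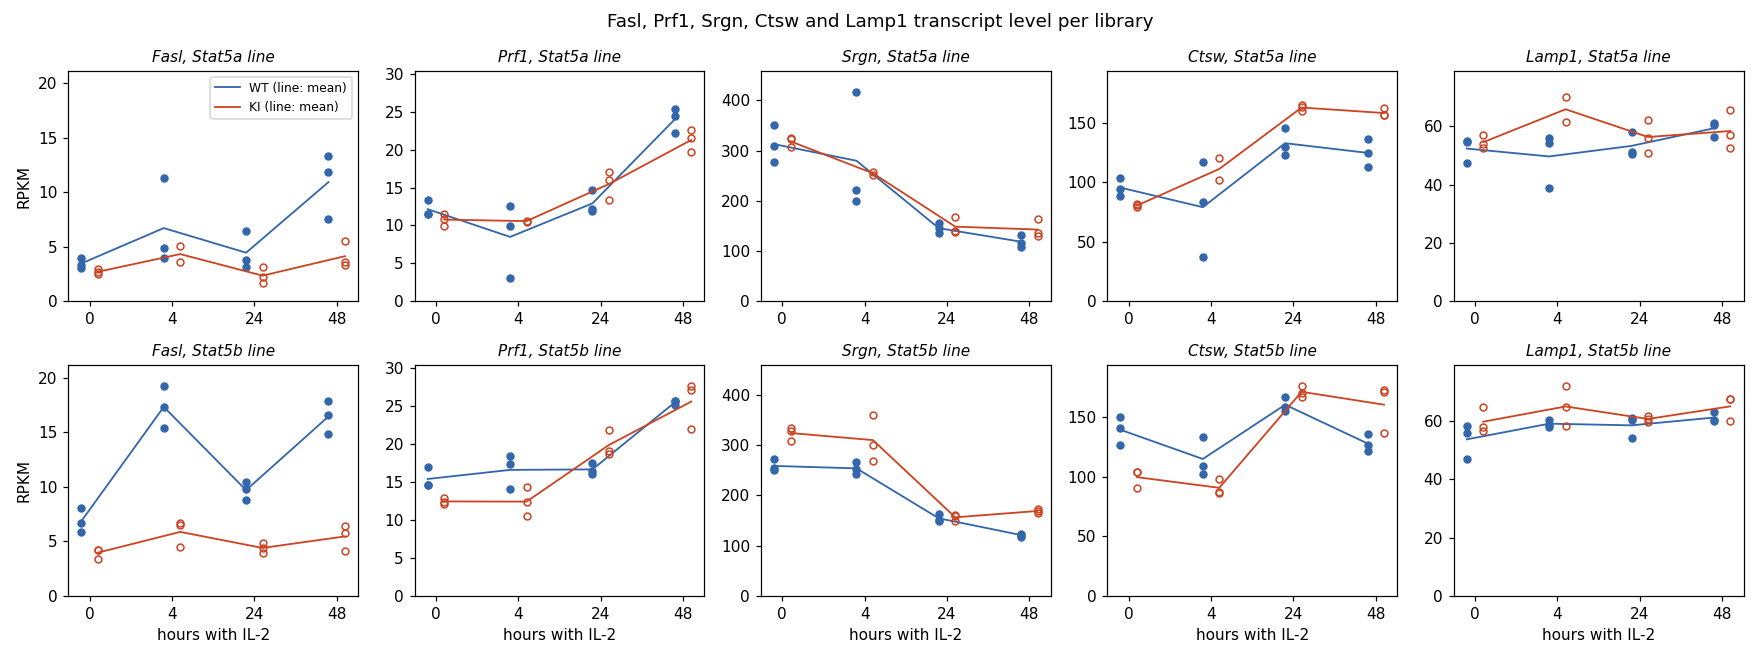
*Fasl*, *Prf1*, *Srgn*, *Ctsw*, and *Lamp1* levels in RPKM by hours with IL-2 (times evenly spaced), with 1 point per library, WT filled blue, KI open red, and lines through the means. *Fasl* of *Stat5b* KI cells stays at 3.41 to 6.71 RPKM throughout, while *Lamp1* lies at 38.9 to 71.9 RPKM over all libraries used.

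When the IL-2 responses of KI and WT cells were compared, 1 of the 10 genes (*Gzmb*) was called lower at 24 hr in the *Stat5a* line, beside 1.31% of all genes, and 2 (*Gzmb* and *Fasl*) at 48 hr, beside 3.09%. For the *Stat5b* line 2 (*Gzmb* and *Gzmc*) were called lower at 24 hr, beside 6.66%, and at 48 hr, beside 11.1%. For the difference of the KI effects between the lines *Gzmb* and *Gzmc* were called, at 24 hr (2 lower, beside 1.27%) and at 48 hr (2 lower, beside 0.514%). In these 6 contrasts edgeR called 0 of the 10 higher, though *Ctsw* passed an unadjusted p of 0.05 upward in all 4 contrasts of IL-2 responses and *Prf1* at 24 hr in the *Stat5b* line. DESeq2 and limma also called 0 higher in these contrasts. The share of all genes called higher is not given for the 6 contrasts, so these counts of 0 have nothing to be set beside. With only the groups compared in the fit, edgeR called *Gzmk* higher at 48 hr in the response difference of the *Stat5b* line (1.61, adjusted p = 0.00274) and in the difference between the lines (1.83, adjusted p = 0.0382). Without KI replicate 2 of 0 hr it called *Gzmm* higher in the response difference of the *Stat5b* line at 24 hr (1.28, adjusted p = 0.0385).

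*Gzmk* was higher in *Stat5b* KI cells at 24 and 48 hr. Granzyme K is a granzyme of memory CD8+ T cells. WT cells of this line had 6.26, 12.6, and 20.6 RPKM at 0 hr, 15.4, 30.1, and 45.8 at 4 hr, 7.59, 14.6, and 17.5 at 24 hr, and 4.20, 5.80, and 6.40 at 48 hr. In *Stat5b* KI cells it stood at 24.6, 29.4, and 30.8 RPKM at 0 hr, at 55.9, 64.5, and 67.1 at 4 hr, at 42.5, 44.1, and 53.0 at 24 hr, and at 30.5, 35.0, and 41.8 at 48 hr. Every KI library was above every WT library at each time. KI over WT gave log2 fold changes of 1.04 ± 0.62 at 0 hr (adjusted p = 0.237), 0.92 ± 0.61 at 4 hr (adjusted p = 0.271), 1.78 ± 0.62 at 24 hr (adjusted p = 0.0165), and 2.62 ± 0.66 at 48 hr (adjusted p = 0.000719), and the 2 later differences were called. The 24 hr call was lost without WT replicate 3 (1.51, adjusted p = 0.0828) and with all 48 libraries (1.77, adjusted p = 0.0517). The IL-2 responses differed by 1.58 ± 0.88 at 48 hr, which did not pass the test (adjusted p = 0.138) but did with only the groups compared. In that fit the difference at 0 hr was called too (1.05, adjusted p = 0.0274). The response difference was also called when edgeR's fit took replicate numbers as a block (1.47, adjusted p = 3.59e-08), though pairing by number is unsettled in this line. *Gzmk* of WT cells was lower at 48 hr than at 0 hr, at −1.43 ± 0.64 on the log2 scale (adjusted p = 0.0464). This call was lost, at −0.89 to −1.48, without any 1 of the 6 libraries other than WT replicate 3 of 0 hr. It was also lost with DESeq2 (adjusted p = 0.0629), limma (0.112), no filter (0.0671), and all 48 libraries (0.103). Taking each symbol's transcript with the highest mean count lost it as well (0.0596). *Gzmk* has 1 listed transcript, so that setting changed only the transcripts of other genes.

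*Gzmk* of the *Stat5a* line was lower and, relative to its mean, more spread. Its WT libraries at 48 hr stood at 0.872, 0.881, and 4.05 RPKM and its KI libraries at 2.10, 2.96, and 5.63. These overlapped, and KI over WT at 48 hr gave 0.79 ± 0.71 on the log2 scale (adjusted p = 0.393). The KI effects of the lines on *Gzmk* differed by 1.83 ± 0.95 at 48 hr, which was not called (adjusted p = 0.233) unless only the groups compared were fitted (adjusted p = 0.0382).

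*Gzmm*, which encodes a granzyme that cuts after methionine and leucine, was lower in *Stat5b* KI cells before IL-2. At 0 hr it stood at 5.10, 7.00, and 8.25 RPKM in WT cells and at 1.75, 2.25, and 4.02 in KI cells of this line, and the groups did not overlap. It was the 1 gene of the 10 called between KI and WT cells at 0 hr (−1.41 ± 0.33, adjusted p = 0.00187). The value at 4 hr was −1.04 ± 0.34 (adjusted p = 0.0207), just past the 2-fold threshold. At 24 hr WT libraries stood at 3.72, 4.85, and 4.87 RPKM and KI libraries at 2.01, 2.21, and 5.19, which overlap and were not called (−0.54 ± 0.33, adjusted p = 0.174), and the value at 48 hr was under 2-fold (−0.86 ± 0.32, adjusted p = 0.0193). Both rested on KI replicate 2, without which *Gzmm* was called at 24 hr (−1.13, adjusted p = 0.00586) and at 48 hr (−1.37, adjusted p = 0.000861). The 4 hr call was lost, at −0.75 to −0.99, without WT replicate 2 or 3 or KI replicate 1 or 3, and without TMM scaling (−0.88). Limma (−0.68, adjusted p = 0.0607) and a fit of only the groups compared (−1.0, just under 2-fold) lost it too. *Gzmm* of the *Stat5a* line at 0 hr stood at 3.19, 4.01, and 4.12 RPKM in WT cells and at 1.87, 1.90, and 2.42 in KI cells, also without overlap but not called (−0.90 ± 0.34, adjusted p = 0.139). *Gzmm* of WT cells fell at 4 hr with IL-2, by 1.78 ± 0.35 on the log2 scale for the *Stat5a* line (−1.69 without WT replicate 2) and by 1.34 ± 0.33 for the *Stat5b* line, and at 48 hr it was not called against 0 hr in either.

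*Gzma*, an abundant tryptase of killer cells, rose in WT cells of the *Stat5a* line from 10.9, 13.2, and 17.6 RPKM at 0 hr to 43.7, 57.2, and 59.1 at 48 hr (1.73 ± 0.43, adjusted p = 0.000533). For the *Stat5b* line it stood at 11.3, 18.0, and 36.6 RPKM at 0 hr and at 20.3, 22.2, and 40.5 at 48 hr in WT cells, which overlap (0.16 ± 0.42, adjusted p = 0.746). The sole call between KI and WT cells was at 24 hr in the *Stat5b* line, where WT libraries stood at 9.08, 13.4, and 34.4 RPKM and KI libraries at 6.40, 7.10, and 11.7. These overlap, and the call (−1.20 ± 0.44, adjusted p = 0.0211) rested on WT replicate 3, the highest library, without which the log2 fold change was −0.45 (adjusted p = 0.423). It was also lost without KI replicate 2 (−1.11, adjusted p = 0.0679) or KI replicate 3 (−1.03, adjusted p = 0.0879), and by limma (−0.92, adjusted p = 0.0844). At 4 hr in this line *Gzma* was not called (−1.06, adjusted p = 0.0624) but was without WT replicate 1 (−1.45, adjusted p = 0.0101).

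**Figure D3:**
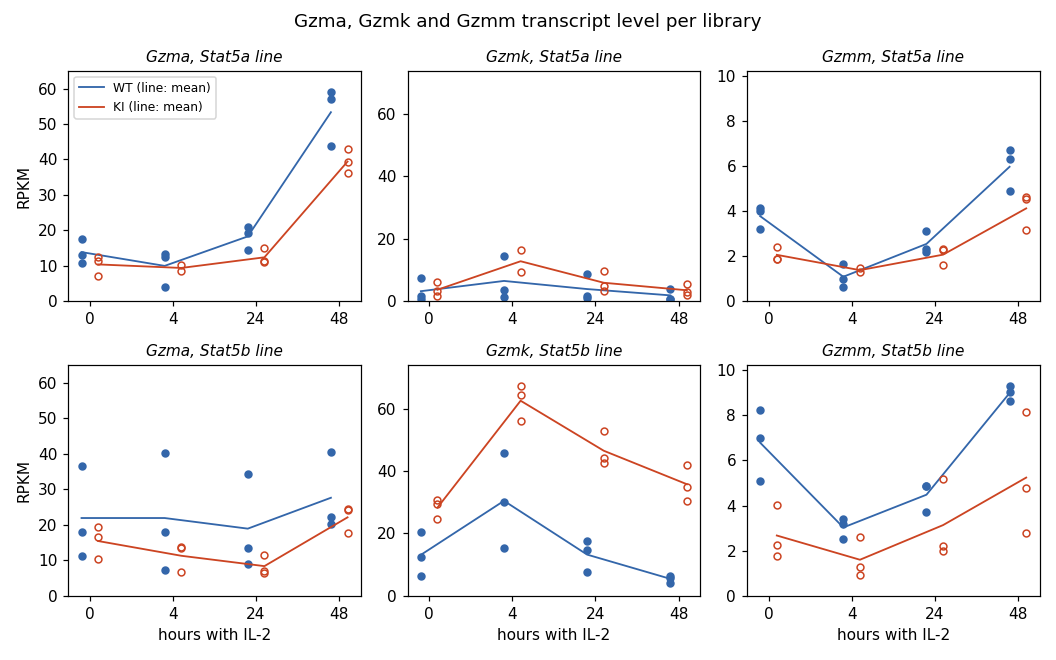
*Gzma*, *Gzmk*, and *Gzmm* levels in RPKM by hours with IL-2 (times evenly spaced), with 1 point per library, WT filled blue, KI open red, and lines through the means. *Gzmk* of *Stat5b* KI cells lies above WT at all times, at 30.5 to 41.8 against 4.20 to 6.40 RPKM at 48 hr, and *Gzma* of WT cells of the *Stat5b* line is spread from 20.3 to 40.5 RPKM at 48 hr.

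*Prf1*, the gene of perforin, was not called between KI and WT cells at any time. At 48 hr it stood at 25.1, 25.6, and 25.7 RPKM in WT cells and at 22.0, 27.2, and 27.6 in KI cells of the *Stat5b* line. For the *Stat5a* line it stood at 22.2, 24.5, and 25.4 RPKM in WT cells and at 19.6, 21.6, and 22.6 in KI cells. The groups overlapped in both lines. KI over WT at 48 hr gave log2 fold changes of −0.07 ± 0.16 in the *Stat5b* line and −0.23 ± 0.16 in the *Stat5a* line, with intervals of 2 SE from −0.38 to 0.24 and from −0.54 to 0.08. At 4 hr in the *Stat5b* line it was −0.53 ± 0.16 (adjusted p = 0.00968, under 2-fold). *Prf1* in WT cells was higher at 48 hr than at 0 hr by 0.77 ± 0.16 and 0.55 ± 0.16 on the log2 scale in the *Stat5a* and *Stat5b* lines (adjusted p = 4.08e-05 and 0.00201), which is under 2-fold. At 4 hr in the *Stat5a* line WT replicate 2 stood at 3.04 RPKM beside 9.94 and 12.5 in the other WT libraries.

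*Srgn*, whose proteoglycan packs the granule, had the highest level of the 10 genes per length at 0 hr in all 4 groups. In the *Stat5b* line it stood at 250, 254, and 273 RPKM at 0 hr and at 117.03, 122.1, and 123.9 at 48 hr in WT cells. In KI cells of that line it stood at 309, 328, and 335 RPKM at 0 hr and at 166, 169, and 172 at 48 hr. No library at 48 hr reached the level of any at 0 hr, in either genotype. The fall in WT cells was −1.27 ± 0.22 at 48 hr in the *Stat5b* line and −1.61 ± 0.22 in the *Stat5a* line, both called. KI cells did not overlap WT cells at 48 hr in the *Stat5b* line, but the log2 fold change was not called there (0.40 ± 0.21, adjusted p = 0.0934) nor in the *Stat5a* line (0.21 ± 0.21, adjusted p = 0.443).

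*Ctsw*, a cysteine protease of T and NK cells, stood at 90.8, 104, and 104 RPKM in *Stat5b* KI cells at 0 hr and at 126.6, 141.4, and 150.7 in WT cells (−0.55 ± 0.12, adjusted p = 0.00123, under 2-fold). By 48 hr it stood at 137.03, 172, and 173 RPKM in KI cells and at 121.4, 127.1, and 135.6 in WT cells. The KI libraries were all below WT at 0 hr and all above at 48 hr, and the IL-2 responses differed by 0.79 ± 0.17 (adjusted p = 0.000223), again under 2-fold. For the *Stat5a* line they differed by 0.56 ± 0.17 (adjusted p = 0.0143). *Lamp1*, whose protein reaches the cell surface when granules are released, had a log2 fold change of KI over WT between −0.08 and 0.12 in all 8 comparisons.

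**Figure D4:**
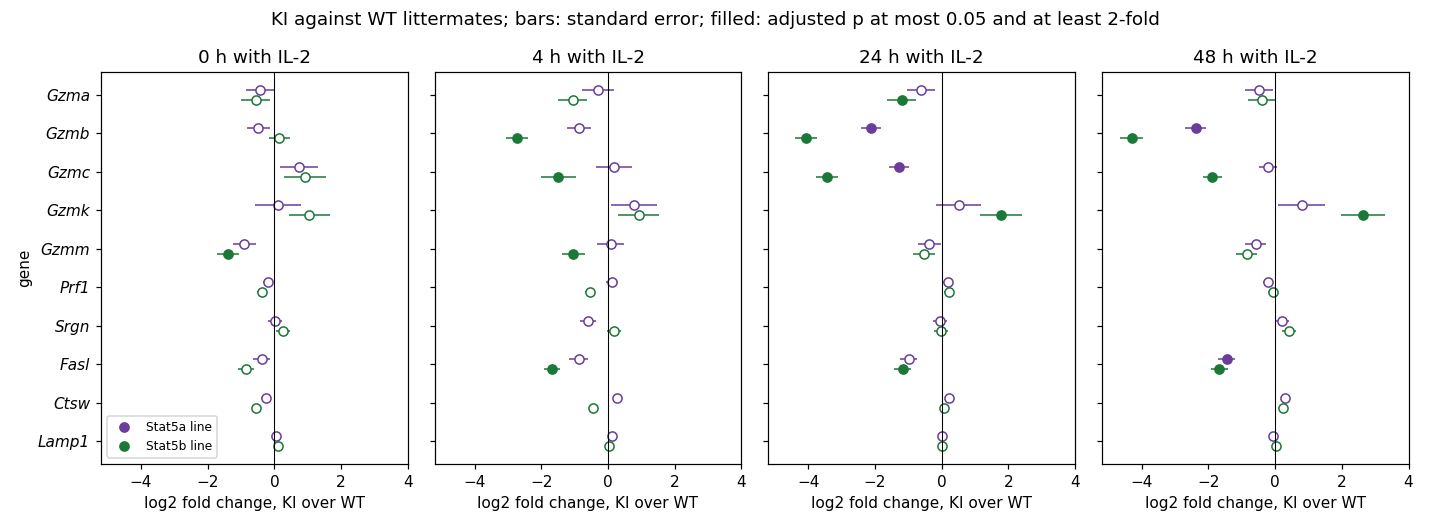
Log2 fold change of KI over WT cells for the 10 genes at 0, 4, 24, and 48 hr with IL-2, with bars of 1 SE, the *Stat5a* line in purple, the *Stat5b* line in green, and filled points for called genes. *Gzmb* of the *Stat5b* line goes from 0.15 at 0 hr to −4.30 at 48 hr, *Gzmk* goes to 2.62, and *Lamp1* lies between −0.08 and 0.12.

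The order of levels per length differed between the groups. In WT cells of the *Stat5b* line at 0 hr, *Srgn* (259 ± 12.3 RPKM, SD, n = 3), *Ctsw* (140 ± 12.2), and *Lamp1* (53.7 ± 5.84) were highest, and the libraries of each were apart from the next. *Gzma*, *Prf1*, *Gzmk*, *Gzmb*, *Fasl*, and *Gzmm* followed from 22.0 to 6.78 RPKM, each overlapping its neighbour, and *Gzmc* (0.0846 ± 0.0308) was last. At 48 hr *Gzmb* (1329 ± 103 RPKM) was highest in these cells and apart from *Ctsw*, which overlapped *Srgn*, and *Gzmk* was last. In *Stat5b* KI cells at 48 hr *Srgn* and *Ctsw* were highest and overlapped, *Gzmb* (71.1 ± 3.81) was the third, and *Gzmk* (35.8 ± 5.68) stood above *Prf1*. In *Stat5a* KI cells at 48 hr *Gzmb* (222 ± 57.4 RPKM) was still highest and apart from *Ctsw* (158 ± 3.49).

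By Pearson's r over the 16 group means of log2 CPM, which is the count scaled to library size, the genes most like *Gzmb* were *Lsm2* (0.985), *Mre11a* (0.982), and *F2rl2* (0.982). Those most like *Prf1* were *Asrgl1* (0.919), *Pip4k2b* (0.914), and *Trpv2* (0.913), and those most like *Gzma* were *Plekhg3* (0.850), *Igsf5* (0.849), and *Racgap1* (0.848). Among the 10 genes, r between *Gzmb* and *Gzmc* was 0.94, and r between *Gzmb* and *Srgn* was −0.84. The means share libraries and the course over time, and the values describe shared shape.

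The other granzymes of the chromosome 14 cluster had few reads. *Gzme* had 0 reads in each WT library of the *Stat5b* line at 0 hr, 8 to 16 in those at 48 hr, and 0 to 7 in KI libraries at 48 hr. *Gzmg* had 2 to 12 reads at 48 hr in the same WT cells and 2 to 3 in KI cells. *Gzmd* reached 91 reads in 1 WT library of the *Stat5a* line at 48 hr, whose lowest library had 3, and at most 4 in any other group. *Gzmf* had at most 3 reads in any library, and *Gzmn* had none. Counts of 3 or fewer are at the floor.

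Of a list of 42 other genes of granule loading, transport, release, and death receptors, 41 were in the files and 37 were tested. By 48 hr in WT cells, 5 rose and 5 fell in the *Stat5a* line and 6 rose and 4 fell in the *Stat5b* line, with medians of 0.22 and 0.20 on the log2 scale. As shares of the 37 these are 13.5% and 13.5%, beside 14.3% and 22.3% of all genes, and 16.2% and 10.8%, beside 14.6% and 20.7%. Between KI and WT cells of the *Stat5a* line, edgeR called 0 at 0 hr, 1 lower at 4 hr, 0 at 24 hr, and 1 higher at 48 hr. The calls at 4 and 48 hr are each 2.7% of the list, beside 4.16% and 6.35% of all genes. Where the list had 0 calls, upward calls took 0.861% of all genes before IL-2 and 3.21% after 24 hr. Downward calls took 0.180% and 1.24% of all genes at these times. An unadjusted p under 0.05 was found for 10 of the 37 at 0 hr and for 13 at 24 hr. For the *Stat5b* line the numbers called higher at 0, 4, 24, and 48 hr were 1, 1, 2, and 2, and the numbers called lower were 0, 1, 1, and 4. As shares of the list the higher ones are 2.7%, 2.7%, 5.4%, and 5.4%, beside 7.38%, 9.20%, 10.9%, and 16.5% of all genes, and the lower ones 0%, 2.7%, 2.7%, and 10.8%, beside 0.604%, 1.23%, 5.77%, and 9.81%. The lower ones at 48 hr were *Gzme* (−1.73 ± 0.75, on the few reads given above), *Serpinb9* (−1.40 ± 0.20), which protects killer cells from their own granzyme B, its relative *Serpinb6b* (−1.02 ± 0.19), and the granule transport gene *Sytl3* (−1.001 ± 0.084). *Serpinb9* stood at 37.4 to 42.1 RPKM in WT cells and at 15.5 to 16.9 in KI cells of this line. Its log2 fold change at 48 hr in the *Stat5a* line was −0.94 (adjusted p = 0.000139, under 2-fold). The higher ones were the lysosomal genes *Cd63* (2.86 ± 0.35) and *Ctsl* (1.68 ± 0.22), and *Cd63* was also the 1 gene higher in *Stat5a* KI cells (1.42 ± 0.33). *Cd63* stood at 1.07 to 1.62 RPKM in WT cells and at 8.65 to 10.6 in KI cells of the *Stat5b* line. Macrophages also express *Cd63* and *Ctsl*, and their markers, led by *Lyz2*, summed to 3.83 to 5.50 CPM in those WT libraries and 99.1 to 157 in the KI libraries. Their part in these values was not tested.

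Regulators of granule genes and IL-2 receptor genes were examined as a list of 9. Of these, 3 were lower and 0 higher in *Stat5a* KI cells at 48 hr, beside 2.43% and 6.35% of all genes, and 5 were lower and 1 higher (*Zeb2*, 1.003 ± 0.257) in *Stat5b* KI cells, beside 9.81% and 16.5%. *Il2ra*, which encodes a chain of the IL-2 receptor, stood at 55.3 to 63.0 RPKM in WT cells and at 9.21 to 11.9 in KI cells of the *Stat5b* line at 48 hr (−2.54 ± 0.37). The STAT5 feedback gene *Cish* was lower there (−2.54 ± 0.22), as were the receptor chain *Il2rb* (−1.56 ± 0.16) and the transcription factors *Tbx21* (−1.17 ± 0.15) and *Eomes* (−1.01 ± 0.18), which act on granzyme and perforin genes. In *Stat5a* KI cells *Il2ra* (−2.09 ± 0.36), *Cish* (−1.29 ± 0.21), and *Eomes* (−1.35 ± 0.19) were lower at 48 hr. *Stat5a* and *Stat5b* mRNA were not called in any of the 8 comparisons of KI and WT cells, and a changed codon cannot be seen in these counts.

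**Figure D5:**
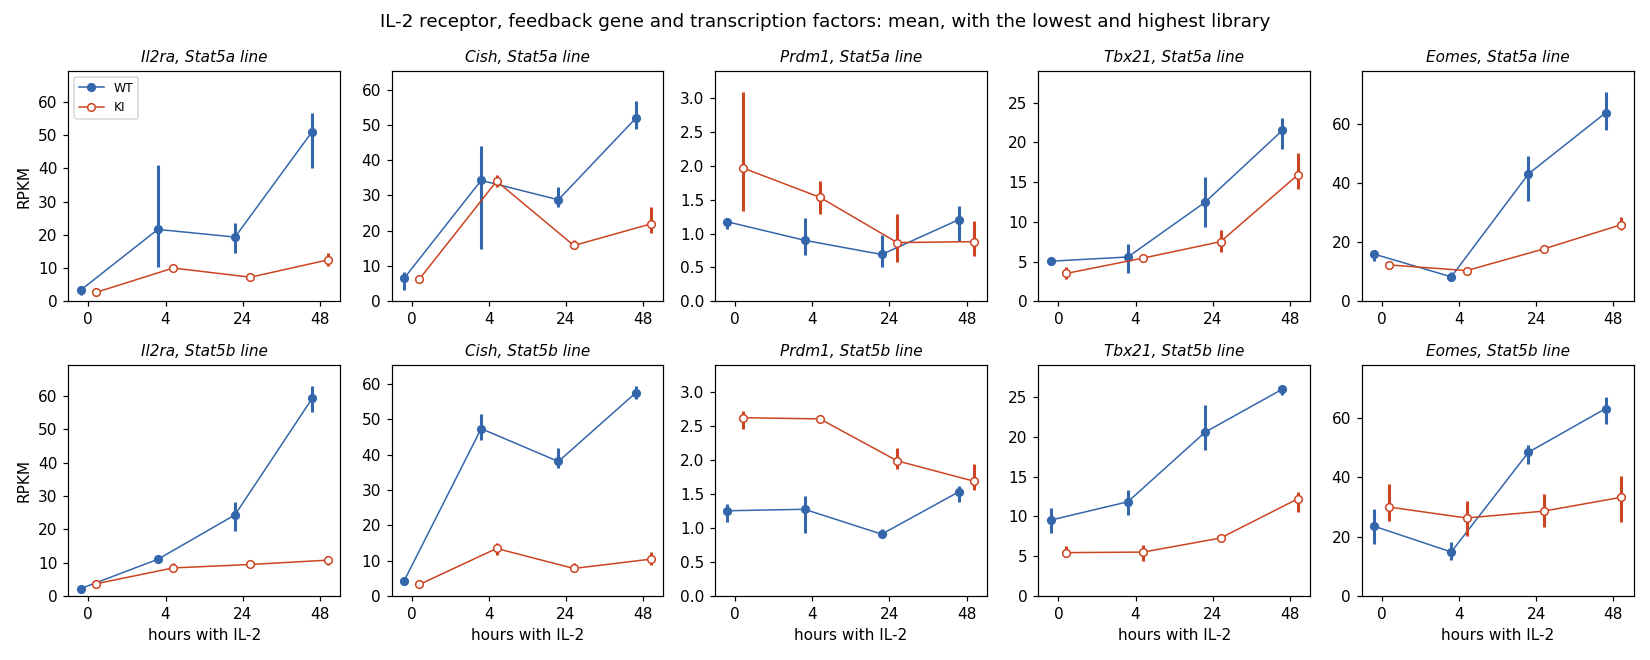
*Il2ra*, *Cish*, *Prdm1*, *Tbx21*, and *Eomes* levels in RPKM by hours with IL-2 (times evenly spaced), with the group mean as a point (WT filled, KI open) and a bar from the lowest to the highest library. *Il2ra* reaches 55.3 to 63.0 RPKM in WT cells of the *Stat5b* line at 48 hr and 9.21 to 11.9 in KI cells.

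Markers of several other cell types were higher in KI libraries at 48 hr. Of all genes at that time, 16.5% were called higher and 9.81% lower in the *Stat5b* line, and 6.35% and 2.43% in the *Stat5a* line. In bulk RNA, fewer cells of a type and less RNA per cell cannot be told apart. At 48 hr in the *Stat5b* line the 8 B cell markers, led by *Cd79a*, summed to 23.7 to 28.4 CPM in WT cells and 281 to 313 in KI cells, and all 8 were called higher. All 8 tested macrophage and monocyte markers were called higher, as were 3 of 4 CD4 T cell markers, led by *Cd4* (sums of 13.2 to 16.4 and 69.7 to 76.5 CPM), and all 6 erythroid markers, led by *Hbb-bs* (3.38 to 5.89 and 87.1 to 160.1 CPM). Of the mast cell, neutrophil, and plasmacytoid dendritic cell markers, led by *Kit*, *S100a9*, and *Ccr9*, 2 of 6, 3 of 5, and 4 of 5 tested were higher, and 0 were lower. For the *Stat5a* line at 48 hr the B cell sums were 27.1 to 84.6 CPM in WT and 222 to 275 in KI cells, the macrophage sums were 3.74 to 10.1 and 34.3 to 97.7, and all 8 of each list were higher. B cell sums were also higher in *Stat5b* KI cells at 0 hr, at 580 to 626 CPM against at most 156.4 in WT cells. In *Stat5a* KI cells at 0 hr they were 641.9 to 788.5 CPM against 140.4 to 411.4 in WT cells. There 3 of the 8 markers were called higher, beside 0.861% of all genes. In WT cells of both lines, all 8 B cell markers and 7 of the 8 tested macrophage markers were called lower at 48 hr than at 0 hr. Of the 10 NK cell markers, 5 rose and 1 fell in WT cells of the *Stat5a* line, and 4 rose and 1 fell in those of the *Stat5b* line. From 0 to 48 hr, 14.3% of all genes rose and 22.3% fell in the former, and 14.6% and 20.7% in the latter. None of the markers in the files had 0 reads in every library. The part of these cells in the values of the 10 genes was not tested.

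The markers of CD8 T cells, led by *Cd8a*, summed to 2405 to 2493 CPM in WT cells and 3775 to 3898 in KI cells of the *Stat5b* line at 48 hr. There edgeR called 0 of the 7, beside 16.5% of all genes higher and 9.81% lower. An unadjusted p under 0.05, with a change under 2-fold, was found for 6 of the 7. The 8 markers of memory-phenotype CD8 T cells, led by *Il2rb*, summed to 2736 to 2798 and 1450 to 1720 CPM. Beside the same shares of all genes, 4 were called lower (*Il2rb*, *Ly6c2*, *Eomes*, and *Klrc1*) and 0 higher. At 0 hr the same memory sums were 1404 to 1508 and 1256 to 1329 CPM. The memory sums of the *Stat5a* line at 48 hr were 2228 to 2645 and 1490 to 1751 CPM, with 2 called lower, beside 2.43% of all genes. The 10 NK cell markers, led by *Tyrobp*, summed to medians of 146.6 CPM in WT cells and 125.1 in KI cells of the *Stat5b* line at 48 hr. All KI libraries lay within the WT range, and 4 markers were called higher and 3 lower, beside 16.5% and 9.81% of all genes. NK cells and memory-phenotype T cells carry granules themselves, and their part in the granzyme values was not tested.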

How the data were processed

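RNA-seq of 48 libraries was analysed, and the fit whose values are reported used 47 of them. According to the study's methods and the submitters' processing notes, 50-base single-end reads were mapped to mm10/GRCm38 with TopHat2 2.0.11, and uniquely mapped reads were retained. For each RefSeq transcript the authors deposited a raw count, without normalization. They also deposited an RPKM value, which is the count divided by transcript length and by mapped reads. The counting program and its use of strand are not given in the sources used here, and reads of overlapping genes on opposite strands cannot be told apart. Between 44.9% and 84.4% of mapped reads were counted in the libraries used. RPKM is scaled to mapped reads and the tests are scaled to counted reads, so levels and fold changes can differ.

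Counts of the longest transcript per symbol were tested in R 4.3.3 with edgeR 4.0.16 (TMM, filterByExpr with a minimum count of 10, quasi-likelihood test, 1 mean for each group, 47 libraries in 1 fit). SE is the size of the log2 fold change over the square root of F. The fit was also run on simulated counts that held no outlying or paired library. That run therefore does not show how the fit performs on these data. Genes were named by list, as the 10 genes, the other granule genes that were granzymes or were called at 48 hr between KI and WT cells, 9 regulators, and the 3 genes most alike by r. Members and lists were chosen with earlier results of these data known. A count of 3 corresponds to 0.0498 to 0.173 CPM, which covers counting error only. Every 2 replicates differed by more than sampling noise, with a chi-square per gene of 4.83 to 221 among the libraries used and up to 1919 against the library left out. Same-numbered WT libraries of the *Stat5a* line deviated together between 0 hr and 24 hr (r of 0.206 to 0.419) and between 0 hr and 48 hr (0.117 to 0.192), taken from the data since the labels do not say what a number marks. In the other comparisons at least 1 pair had an r of 0.1 or less. Alternatives were DESeq2 1.42.0, its size factors in edgeR, limma 3.58.1 on log2(RPKM + 1), no TMM, no filter, all 48 libraries, only the groups compared, the replicate block, each symbol's transcript with the highest mean count, and each library left out. Promoters are from RefSeq (GRCm38.p6, 9 of 10 genes matched, *Ctsw* was not). Other assays of the series were not used here, and 1 list of T cell markers is not reported here.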

Additional observations from a re-analysis of the deposited data

Results flagged for a closer look

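Differences of an effect between groups passed the test for 3 of the 10 genes. For *Gzmb*, the IL-2 response of KI cells was below that of WT cells by a log2 difference of −1.64 at 24 hr and −1.90 at 48 hr in the *Stat5a* line, and of −4.21 and −4.45 in the *Stat5b* line. For *Gzmc*, the same difference was −4.35 at 24 hr and −2.81 at 48 hr in the *Stat5b* line, where the 0 hr libraries of WT cells hold 3 to 6 reads. For *Fasl*, it was −1.08 at 48 hr in the *Stat5a* line. The KI effect differed between the *Stat5b* and *Stat5a* lines by −1.94 at 24 hr and −1.92 at 48 hr for *Gzmb*, and by −2.16 and −1.67 for *Gzmc*. Dixon's test for an outlying library was not applied, since groups hold at most 3 libraries.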

How the results depend on the processing

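Of 50 calls among the 10 genes over 20 comparisons, 38 were called under every alternative and left-out library, 8 were lost under at least 1 left-out library, 12 under at least 1 other alternative, and 0 reversed. Of the values not called, 16 were called under some setting, and 57 that were never called changed sign. The number of the 10 genes called changed by over 1.5 times as follows. With all 48 libraries it was 2 for KI against WT at 4 hr in the *Stat5a* line, 0 and 1 for its IL-2 response differences at 24 and 48 hr, and 1 for the line difference at 48 hr. With limma it was 1 and 3 for KI against WT at 24 hr in the *Stat5a* and *Stat5b* lines, 2 at 4 hr in the *Stat5b* line, 1 for the *Stat5a* response difference at 48 hr, and 2 for IL-2 at 4 hr in WT cells of the *Stat5b* line. With only the groups compared it was 0 for the *Stat5a* response difference at 24 hr and 2 for KI against WT at 0 and 4 hr in the *Stat5b* line, the latter without *Gzmc*, which was not tested there. Without TMM it was 1 for the *Stat5a* response difference at 48 hr and 2 for KI against WT at 4 hr in the *Stat5b* line, and with DESeq2 it was 2 for the *Stat5a* response difference at 24 hr.

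With each library left out in turn, the number called for IL-2 in WT cells at 4, 24, and 48 hr was 2 to 4, 3 to 3, and 5 to 6 in the *Stat5a* line and 4 to 4, 2 to 3, and 4 to 5 in the *Stat5b* line. For KI against WT at 0, 4, 24, and 48 hr it was 0 to 0, 0 to 2, 1 to 3, and 2 to 2 in the *Stat5a* line and 1 to 1, 2 to 5, 3 to 5, and 4 to 5 in the *Stat5b* line. For the response differences it was 0 to 2 and 1 to 2, and 2 to 3 and 2 to 2, and for the line differences 2 to 2 at both times. Of the 16 values called under some setting alone, 3 also changed sign, all of them responses to IL-2 in WT cells. *Gzmk* in the *Stat5a* line ranged from −0.25 (without WT replicate 3 of 4 hr) to 2.41 at 4 hr and from −2.06 to 0.56 (without WT replicate 3 of 0 hr) at 48 hr, and *Gzma* in the *Stat5b* line from −1.09 to 0.23 (without WT replicate 3 of 0 hr) at 24 hr.

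The replicate block changed no call of the 10 genes in the 2 comparisons where numbers paired. Elsewhere not every pair passed an r of 0.1, though r reached 0.426 for 1 pair of WT libraries at 0 and 4 hr in the *Stat5a* line and was 0.007 to 0.142 for WT libraries of the *Stat5b* line, so pairing there is unsettled. There, the block called *Gzmk* with IL-2 at 4 hr in WT cells of the *Stat5b* line (1.05, adjusted p = 1.78e-08, 5 genes called) and in its response difference at 48 hr (1.47, adjusted p = 3.59e-08), and lost *Gzma* for KI against WT at 24 hr (−1.02, adjusted p = 0.13).

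Over all genes, limma called fewer genes than edgeR in each comparison of KI with WT, with 47 to 249 against 162 to 1367 over the 4 times in the *Stat5a* line (238 at 48 hr) and 293 to 1420 against 1242 to 4091 in the *Stat5b* line, and for IL-2 in WT cells 845 to 2809 against 2448 to 5697. Its calls were higher in 35.2% and 41.1% at 24 and 48 hr between KI and WT cells of the *Stat5b* line, against 65.4% and 62.7% by edgeR, in 94.4% against 37.2% at 4 hr in the *Stat5a* line, and, for IL-2 in WT cells of the *Stat5a* and *Stat5b* lines, in 73.4% and 71.2% at 48 hr against 39.0% and 41.4%, in 65.6% and 70.3% at 24 hr against 38.0% and 40.3%, and in 29.8% and 58.8% at 4 hr against 46.9% and 37.1%. With all 48 libraries these were 23, 2668, and 449 at 0, 4, and 24 hr in the *Stat5a* line and 717 at 0 hr in the *Stat5b* line, and 95.1% of those at 4 hr were higher, against 37.2%. With only the groups compared 1 and 0 genes were called at 0 and 4 hr in the *Stat5a* line, and 1941 against 3330 for IL-2 at 4 hr in its WT cells. With 1 library left out, the numbers at 0 and 4 hr in the *Stat5a* line were 20 to 240.0 and 54 to 1645. The planned log2(RPKM + 0.1) alternative was not run. Causes were not tested. Depth limits *Gzmc* at 0 and 4 hr and the other granzymes of its cluster.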

Other observations

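In the 4 hr library of *Stat5a* KI cells that was left out, *Srgn* had 193 reads (11.4 RPKM), *Gzmk* 25, *Lamp1* 20, *Ctsw* 17, *Gzmb* 3, *Gzmm* 1, *Prf1* 1, and *Fasl*, *Gzma*, and *Gzmc* 0.

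In some groups, libraries with 1 number kept the same place at all times. In WT cells of the *Stat5b* line, replicate 3 had the highest *Gzma* and the lowest *Gzmk* at all 4 times, with 36.6, 40.4, 34.4, and 40.5 RPKM of *Gzma* and 6.26, 15.4, 7.59, and 4.20 RPKM of *Gzmk* at 0, 4, 24, and 48 hr. In WT cells of the *Stat5a* line, replicate 3 had the highest *Gzmk* at all 4 times, with 7.38, 14.7, 8.92, and 4.05 RPKM. *Gzma* kept no such order there, since replicate 3 was highest at 0 hr (17.6 RPKM) and lowest at 48 hr (43.7 RPKM). The labels do not say whether a number marks 1 mouse.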
